A study of Mus musculus with 8 samples.

Results

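The genes described here are 30 genes of cholesterol and fatty acid synthesis, chosen by name, of 25353 genes tested on the arrays. They comprise 19 enzymes of the sterol arm, 8 of which lead to the isoprenoid pyrophosphates and 11 from there to cholesterol, 6 genes of the fatty acid arm, and 5 regulators or carriers. Each was found through the RefSeq accession of its array probes, 45 probes in all, and the probe with the highest mean over the 8 arrays stands for the gene. All 30 were well above background on all 8 arrays. RNA came from the whisker follicles of females. All mice, vehicle controls included, were ApcMin/+ and so carry 1 truncating Apc allele in every cell. E7386, a small molecule known as a modulator of the interaction between beta-catenin and CBP, was given to the mice of 4 samples at 30 mg/kg by mouth, 2 times per day. Treatment started when the mice were 8 weeks old and had 4 cycles, each of 5 days with dosing and 2 without, and follicles were taken 6 h after the last dose. The other 4 samples came from mice given vehicle. Nothing in the labels ties a sample to its own mouse, so the p-values cover the spread between these samples, which may be technical.

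Cells make cholesterol from acetyl-CoA through mevalonate, farnesyl pyrophosphate, squalene and lanosterol, and make palmitate from the same acetyl-CoA through malonyl-CoA. Both arms are driven by the SREBP transcription factors, which SCAP escorts out of the endoplasmic reticulum when sterols are low and INSIG proteins retain when sterols are high; SREBP2 mainly drives sterol enzymes and SREBP1c mainly fatty acid enzymes. In skin, the follicle epithelium and the sebaceous gland both make lipids, and inborn defects of sterol enzymes such as NSDHL and EBP cause skin and hair disease.

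SREBP binds promoters together with NF-Y, which binds the box CCAAT, so the bases upstream of the start of each gene were searched for shared letters. The RefSeq promoter table of GRCm38.p6 holds 33 starts for 26 of the 30 genes, and 250 bases upstream of each start were read. CCAAT, on either strand, was present upstream of 15 of the 16 sterol genes found there and of 3 of the 6 fatty acid genes, against 37.5% of all genes in the table. Counted by start, that is 15 of 19 sterol starts and 3 of 7 fatty acid starts, against 33.9% of 32851. The core TCACNCCAC of the sterol regulatory element, on either strand, was found upstream of Hmgcs1 only, and 1.05% of all starts hold it. The Sp1 box GGGGCGGGG was upstream of 2 sterol genes, 2 fatty acid genes and 2 regulators, and of 11.8% of all genes. A match is a description of letters, and its absence from this window says nothing about the factor. The promoters below are those of Lss, the only member past the test, of Mvd, of Hmgcs1 with the sterol element, of Fasn from the fatty acid arm, and of Tm7sf2, whose mean was higher with E7386. Capitals mark CCAAT or its reverse complement ATTGG and, in Hmgcs1, the sterol element; in Fasn a forward and a reverse box overlap.
Lss: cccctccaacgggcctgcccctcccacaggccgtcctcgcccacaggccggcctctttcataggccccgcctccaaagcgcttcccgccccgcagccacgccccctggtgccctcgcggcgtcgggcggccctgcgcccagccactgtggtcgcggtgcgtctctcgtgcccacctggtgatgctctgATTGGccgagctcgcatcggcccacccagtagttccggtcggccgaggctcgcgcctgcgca
Mvd: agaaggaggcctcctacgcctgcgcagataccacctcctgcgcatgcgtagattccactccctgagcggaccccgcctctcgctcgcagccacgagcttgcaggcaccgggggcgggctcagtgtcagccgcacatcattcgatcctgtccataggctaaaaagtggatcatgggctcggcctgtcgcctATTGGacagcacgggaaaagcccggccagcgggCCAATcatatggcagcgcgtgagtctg
Hmgcs1: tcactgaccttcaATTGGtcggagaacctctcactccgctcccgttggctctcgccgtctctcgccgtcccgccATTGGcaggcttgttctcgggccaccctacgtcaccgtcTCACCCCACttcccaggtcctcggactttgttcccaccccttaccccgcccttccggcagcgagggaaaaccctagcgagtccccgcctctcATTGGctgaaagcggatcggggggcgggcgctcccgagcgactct
Fasn: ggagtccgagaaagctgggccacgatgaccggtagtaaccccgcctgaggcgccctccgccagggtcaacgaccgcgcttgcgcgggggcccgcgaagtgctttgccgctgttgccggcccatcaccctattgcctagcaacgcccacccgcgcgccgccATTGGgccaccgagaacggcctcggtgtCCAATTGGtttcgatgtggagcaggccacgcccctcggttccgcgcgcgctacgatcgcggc
Tm7sf2: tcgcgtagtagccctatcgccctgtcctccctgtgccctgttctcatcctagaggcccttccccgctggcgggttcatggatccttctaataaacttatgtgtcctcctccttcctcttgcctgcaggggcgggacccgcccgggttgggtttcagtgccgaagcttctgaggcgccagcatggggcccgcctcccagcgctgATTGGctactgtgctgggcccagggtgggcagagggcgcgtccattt
They lie at chr10:76531355-76531604 on the plus strand for Lss, chr8:122443423-122443672 on the minus strand for Mvd, chr13:119690101-119690350 on the plus strand for Hmgcs1, chr11:120824548-120824797 on the minus strand for Fasn, chr19:6067851-6068100 on the minus strand for Tm7sf2, each printed 5′ to 3′ on the strand of its gene.

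Most members had lower signal with E7386, by small amounts, and 1 of them passed the test. Lss, lanosterol synthase, fell 1.39-fold, and Srebf1, which encodes SREBP1, had the largest difference of the 30 at 1.73-fold lower but missed the threshold. Means were lower with E7386 for 25 of 30 members, where 46.2% of all genes tested were lower (61.2% with arrays scaled on the median in place of the 75th percentile). Among the 16133 genes with a symbol, 52.8% were lower. The median log2 change was -0.19 over the members and 0.017 over all genes (-0.014 over the 16133 genes with a symbol). By limma with Benjamini-Hochberg adjustment over all genes at 0.05, 1 of 30 members was lower and 0 were higher, against 0.351% and 0.781% of all genes (1.13% in either direction). Of the calls over all genes, 31.0% were lower, and 44.3% with arrays scaled on the median. At an unadjusted p under 0.05 there were 13 lower and 1 higher, against 7.13% and 7.88%, and 13 members had a change below -0.25, against 10.4%. Of the 16133 genes with a symbol, 1495 were lower and 1189 higher at that unadjusted p, and 12.3% had a change below -0.25. Every E7386 array lay below every vehicle array for 11 members, a separation seen for 5.24% of all genes, and 0 members separated upward, against 5.13%. Among the 16133 genes with a symbol, 1139 separated downward and 862 upward. The members share the same arrays and the genes were chosen with earlier results known, so these counts describe the list.

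**Figure D1:**
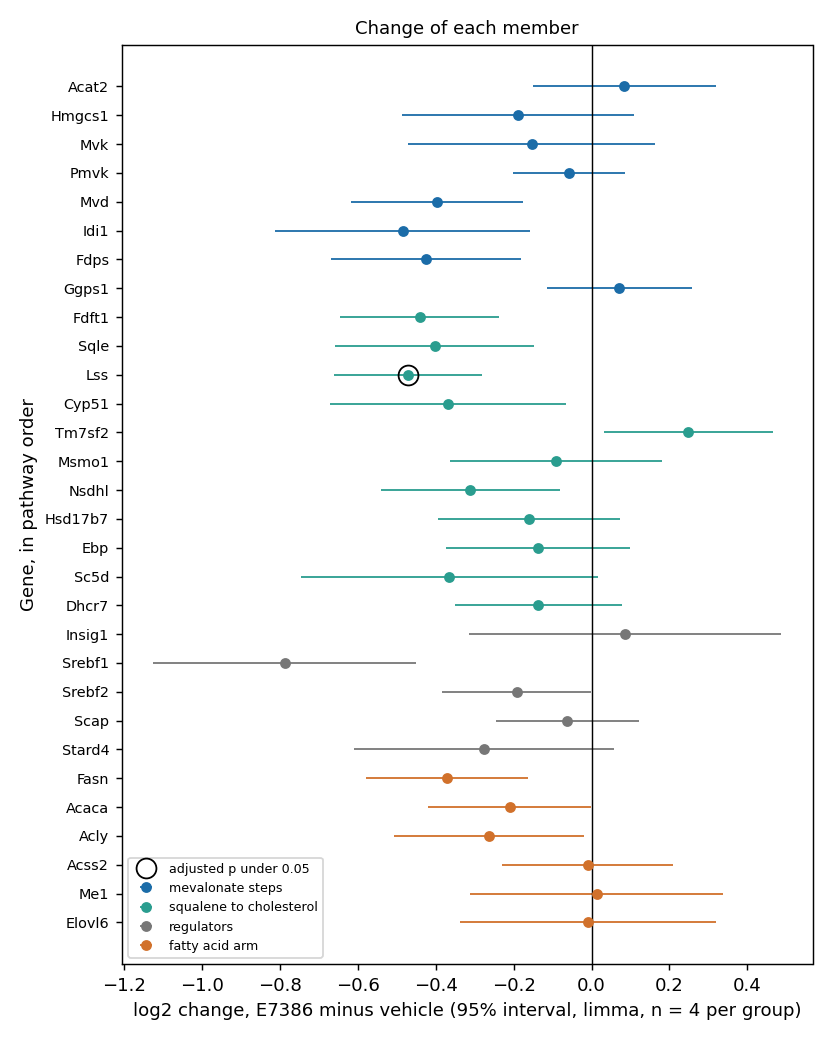
Log2 change of each of the 30 genes (E7386 minus vehicle, points) with its 95% interval from limma, n = 4 per group, in pathway order and coloured by block. Only Lss is circled as past the adjusted threshold; the intervals of Acss2, Me1 and Elovl6 centre on 0, and Tm7sf2 is the one interval wholly above it.

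All vehicle arrays lay in slide row 1 and all E7386 arrays in slide row 2, so row and treatment cannot be told apart. Between 62.2% and 64.7% of spots were well above background with vehicle, and between 61.5% and 61.9% with E7386. The number of arrays limits the precision. Hair shaft, inner sheath and epithelial keratin markers of the follicle were present. Of 20 listed, 19 were among the genes tested, each well above background on all 8 arrays. Skeletal muscle markers were detected too, and their mean signal differed between arrays by 3.12 on the log2 scale within the vehicle group and by 2.93 within the E7386 group. In bulk tissue, fewer cells of a type and less RNA per cell cannot be told apart.

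The first sterol steps differed little. Values here are log2 of the processed signal minus the array's 75th percentile, and are compared only within a gene. Acat2, the thiolase that condenses acetyl-CoA in the cytosol, had a change of 0.084 (SE 0.10, adjusted p = 0.758 by limma). Hmgcs1, HMG-CoA synthase, had 5.20, 5.05, 4.65 and 4.93 on vehicle replicates 1 to 4 and 4.92, 4.71, 4.62 and 4.84 on E7386 replicates 1 to 4. Its groups overlap widely, with a change of -0.19 (95% interval -0.49 to 0.11). Mvk and Pmvk, the 2 kinases that phosphorylate mevalonate, had -0.15 (SE 0.14) and -0.058 (SE 0.062). Pmvk separated the groups without overlap at that small difference, because its SD was 0.042 with vehicle and 0.029 with E7386.

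The next 3 enzymes, Mvd, Idi1 and Fdps, had larger differences. Mvd, which decarboxylates it to isopentenyl pyrophosphate, had 1.12, 1.03, 0.81 and 0.87 with vehicle and 0.67, 0.59, 0.42 and 0.56 with E7386. All 4 E7386 arrays lay below the lowest vehicle array, and the change was -0.40 (SE 0.096, adjusted p = 0.109). Idi1, the isomerase of that product, had 3.63, 3.48, 3.14 and 3.30 with vehicle and 3.21, 2.79, 2.74 and 2.87 with E7386. E7386 replicate 1 overlapped vehicle replicate 3 there, and the change of -0.48 (SE 0.14, adjusted p = 0.169) was the lowest of the sterol arm. Fdps, farnesyl pyrophosphate synthase, had 4.71, 4.55, 4.32 and 4.49 with vehicle and 4.25, 4.00, 3.98 and 4.14 with E7386, without overlap (change -0.42, SE 0.11, adjusted p = 0.115). Ggps1, which takes farnesyl pyrophosphate to geranylgeranyl pyrophosphate for protein prenylation and so away from sterols, had a change of 0.071 (SE 0.081). Its other probe gave 0.086.

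The 3 enzymes that take farnesyl pyrophosphate to lanosterol were lower on every E7386 array. Fdft1, squalene synthase, had 2.28, 2.21, 1.97 and 2.11 with vehicle and 1.77, 1.64, 1.63 and 1.78 with E7386. Its change of -0.44 (SE 0.088) missed the threshold (adjusted p = 0.0659). The array has a second, dim Fdft1 probe, with -4.53, -4.35, -4.35 and -4.73 on vehicle arrays and -4.29, -4.54, -3.87 and -4.15 on E7386 arrays. That probe gave 0.28 with overlapping groups, so the change of Fdft1 rests on 1 of 2 probes, and it was -0.082 when both were averaged. Sqle, squalene epoxidase, had 4.62, 4.53, 4.32 and 4.36 with vehicle and 4.25, 4.11, 3.85 and 4.01 with E7386 (change -0.40, SE 0.11, adjusted p = 0.144). Lss had 0.66, 0.51, 0.44 and 0.53 with vehicle and 0.16, 0.10, 0.064 and -0.073 with E7386. No E7386 array came near the vehicle range, and the fall of 0.47 on the log2 scale (SE 0.082, 95% interval -0.66 to -0.28, adjusted p = 0.0415) passed. Lss has 1 probe on the array, and without any 1 of the 8 arrays it was no longer called, with changes from -0.50 to -0.42 and adjusted p from 0.0614 to 0.142. With no filter on dim genes its adjusted p was 0.0892. Its promoter, printed above, holds 1 CCAAT box on the reverse strand.

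**Figure D2:**
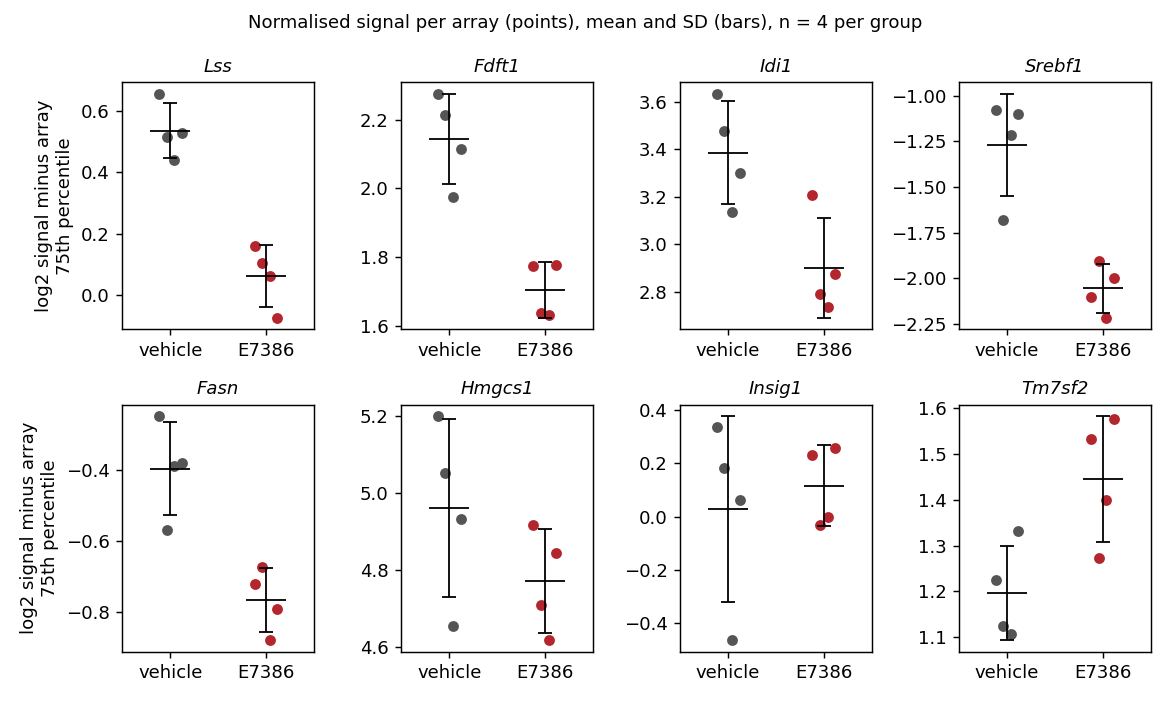
Normalised log2 signal on each array (points) with mean and SD (bars), n = 4 per group, for 8 members; each panel has its own vertical scale. Lss, Fdft1, Srebf1 and Fasn show no overlap between groups, Idi1 overlaps through 1 E7386 array, and Hmgcs1 and Insig1 overlap widely, while Tm7sf2 is higher on most E7386 arrays.

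Among the enzymes that turn lanosterol into cholesterol the pattern was mixed. Cyp51, the lanosterol demethylase, had a change of -0.37 (SE 0.13), Nsdhl, a sterol dehydrogenase, -0.31 (SE 0.100), and Sc5d, the sterol desaturase, -0.37 (SE 0.17). The adjusted p of these genes lay between 0.203 and 0.354. Of the 3, only Nsdhl separated the groups, with 0.087, -0.073, -0.17 and -0.24 for vehicle against -0.31, -0.31, -0.58 and -0.43 for E7386, and its other probe gave -0.17. Hsd17b7, a sterol ketone reductase, Ebp, a sterol isomerase, and Dhcr7, which reduces 7-dehydrocholesterol to cholesterol, had changes of -0.16, -0.14 and -0.14. The other Hsd17b7 probe gave -0.012. Msmo1, the methyl oxidase, had -0.090. All 4 overlapped between groups.

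Tm7sf2, a sterol reductase that acts after Cyp51, was higher in mean with E7386. It had 1.23, 1.12, 1.11 and 1.33 with vehicle and 1.53, 1.27, 1.40 and 1.57 with E7386, a change of 0.25 (SE 0.094) that did not pass (adjusted p = 0.273), and its other probe gave 0.16. E7386 replicate 2 lay inside the vehicle range and the other 3 above it. Lbr, the nuclear envelope protein with the same reductase activity, had -0.078 (SE 0.11).

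Of the 5 regulators, Srebf1 stood furthest from vehicle. Its signal was -1.08, -1.68, -1.22 and -1.10 on vehicle arrays and -2.10, -1.90, -2.22 and -2.0 on E7386 arrays. Vehicle replicate 2 was the lowest of its group, yet above each E7386 array. The change was -0.79 (SE 0.15, 95% interval -1.12 to -0.45, adjusted p = 0.0518). It passed in 9 of 21 alternatives, with a change from -0.92 to -0.55, and without vehicle replicate 2 it was -0.92 (adjusted p = 0.0178). With normexp on the median signals, an alternative added after seeing the data, it was -0.55 and passed (adjusted p = 0.0452). The array has 1 Srebf1 probe, so the 1a and 1c transcripts were not told apart here. Srebf2, which encodes SREBP2, differed by -0.19 (SE 0.083, adjusted p = 0.326), and its other probe gave -0.17.

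The partners of the SREBP proteins differed less. Scap had a change of -0.062 (SE 0.079). Insig1, itself a textbook SREBP target, had 0.34, 0.18, -0.47 and 0.061 with vehicle, so that vehicle replicate 3 alone spread the group, and values from -0.031 to 0.26 with E7386. Its change was 0.086 (95% interval -0.31 to 0.49). Stard4, a carrier of cholesterol between membranes, had -0.28 (SE 0.15, adjusted p = 0.423), and its other probe gave -0.36.

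The fatty acid arm held 3 genes with lower signal and 3 with almost no difference. Fasn, the synthase that makes palmitate, had -0.25, -0.57, -0.39 and -0.38 with vehicle and -0.72, -0.67, -0.88 and -0.79 with E7386. The groups did not overlap, and the change was -0.37 (SE 0.090, adjusted p = 0.11). Acly, which cleaves citrate to cytosolic acetyl-CoA, had 4.80, 4.38, 4.37 and 4.50 with vehicle and 4.31, 4.27, 4.22 and 4.20 with E7386 (change -0.26, SE 0.11, adjusted p = 0.3). Its groups were apart by a small gap, vehicle replicate 1 stood high, and its other probe gave -0.28. Acaca, the carboxylase that makes malonyl-CoA, also separated the groups, and its 3 probes gave -0.21, -0.21 and -0.22 (adjusted p = 0.331 for the first).

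The other members of that arm centred on 0. Acss2, which makes acetyl-CoA from acetate, had -0.0098 (95% interval -0.23 to 0.21), and its other probe gave 0.097. Me1, malic enzyme, a source of NADPH, had 0.013 (-0.31 to 0.34), with 2 further probes at -0.027 and 0.083. Elovl6, which elongates palmitate, had -0.0080 (-0.34 to 0.32), with 3.66 on E7386 replicate 1 against 4.15 to 4.27 on the other 3. The intervals of Me1 and Elovl6 still allow a change of the size measured for Acly.

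Set side by side, the arms differed by less than the spread between arrays. The median change was -0.19 for the sterol arm, with 16 of 19 genes lower, and -0.11 for the fatty acid arm, with 5 of 6 lower, a difference of -0.079. To follow arrays, the vehicle mean of each gene was subtracted and the genes of an arm averaged. The sterol arm stood at 0.13, 0.045, -0.15 and -0.026 on the vehicle arrays and at -0.10, -0.24, -0.32 and -0.22 on the E7386 arrays. E7386 replicate 1 was thus above vehicle replicate 3. For the fatty acid arm the values were 0.10, -0.0056, -0.057 and -0.041, then -0.19, -0.15, -0.15 and -0.072, without overlap. The sterol mean minus the fatty acid mean ran from -0.096 to 0.051 with vehicle and was 0.092, -0.084, -0.17 and -0.15 with E7386. Groups overlap in that difference, and E7386 replicate 1 has the opposite sign to the other 3. Without vehicle replicate 1 the median of the sterol arm was -0.11, and without vehicle replicate 3 it was -0.29.

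Sterol genes were also high or low together on arrays of the same group. Vehicle replicate 1 had the highest value of its group for 12 of the 19 sterol genes, and vehicle replicate 3 the lowest for 15. Among E7386 arrays, replicate 1 was highest for 11 and replicate 3 lowest for 11. The spread of the arm mean over vehicle arrays, 0.29 from lowest to highest, exceeded the mean difference between groups of 0.22. Replicate 1 of each group was also the array of that group with the least muscle signal, whose part in this pattern was not tested beyond the fits given with the marker lists.

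**Figure D3:**
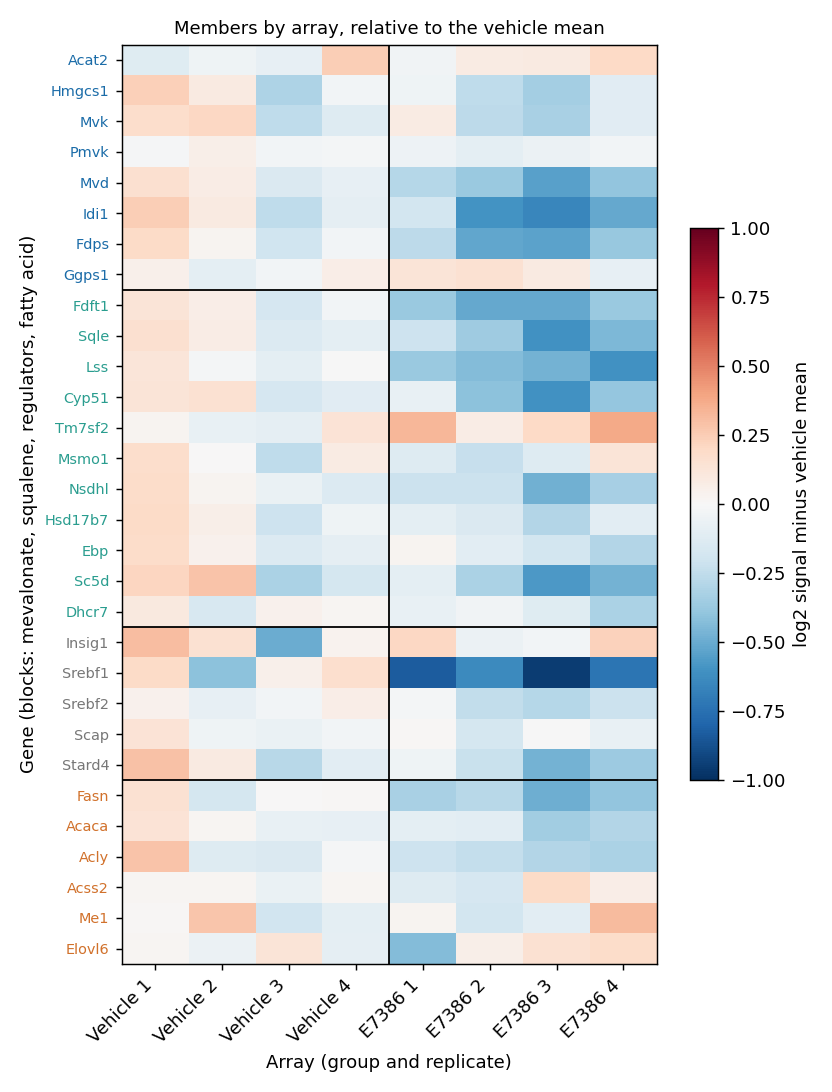
Log2 signal of the 30 genes on each of the 8 arrays minus the mean of the 4 vehicle arrays, with red above and blue below that mean and lines between blocks and groups. Mvd, Fdps, Fdft1, Sqle, Lss, Srebf1 and Fasn are blue on all 4 E7386 arrays, vehicle replicate 1 is red for most genes, and Tm7sf2 is red with E7386.

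Other cell types were followed through marker lists as measured on the same arrays. Sebaceous gland markers were higher in mean for 14 of 16, and their mean log2 signal was 0.66 to 0.86 with vehicle and 0.89 to 1.15 with E7386, without overlap. Dgat2l6, a sebaceous acyltransferase, rose by 0.78 (SE 0.12, adjusted p = 0.0289 by limma), and was no longer called without any 1 of the 8 arrays. Awat1 and Mogat1, 2 further acyltransferases of that list, had 0.58 and 0.53 and did not pass (adjusted p = 0.0881 and 0.183 by limma). Fat cell markers, 11 of 14 higher and 3 lower, had overlapping means of -1.67 to -0.45 with vehicle and -1.12 to 0.21 with E7386. None of the 14 passed. The 3 with the smallest p were Plin4, a lipid droplet protein, at 1.56 (SE 0.37, adjusted p = 0.108 by limma), Lipe at 0.28 (adjusted p = 0.24) and Pck1 at 1.36 (SE 0.55, adjusted p = 0.3). Follicle keratin and factor markers had means of 5.91 to 6.66 with vehicle and 6.30 to 6.65 with E7386. Of the 19 tested, 12 were higher and 7 lower, with a median change of 0.062, and 0 passed. Krt75 had 0.58 (adjusted p = 0.305 by limma), Krt34 0.59 (SE 0.41, adjusted p = 0.553) and Krt86 0.39 (adjusted p = 0.472). The list of 15 muscle genes ran from 1.23 to 4.35 and from 1.51 to 4.44, and Myh2, Mylpf and Myl1 had -0.32, -0.32 and -0.28. Hao2 and Far2 of the sebaceous list were not among the genes tested, through the filter or for want of a probe under that symbol. Each tested marker was well above background on all 8 arrays except 2 of the fat cell list. The part of sebaceous and fat signal in the result was not tested. With the muscle mean as a covariate, added after seeing the data, 5 members passed as lower (Fdft1, Lss, Mvd, Sqle and Srebf1), where 2.23% of all genes passed in either direction. Without the 3 arrays lowest in muscle markers 0 members passed, where 0.185% of all genes did, and the change of Lss was -0.50.

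**Figure D4:**
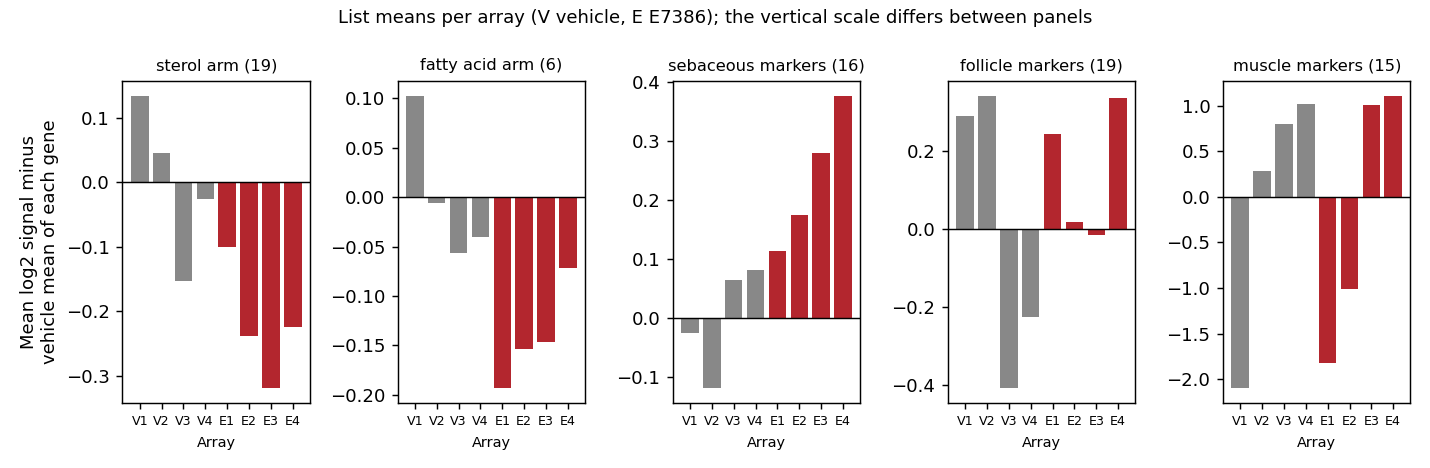
Mean over each list of the log2 signal minus the vehicle mean of each gene, 1 bar per array (V vehicle, E E7386, replicates 1 to 4), with the number of genes in brackets; the vertical scale differs between panels. All E7386 bars are below 0 in the sterol and fatty acid panels, though vehicle replicate 3 is below E7386 replicate 1 in the first; sebaceous bars are higher with E7386, and muscle bars vary within both groups far more than between them.

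Lists of genes that work beside these arms had medians nearer 0. Among 14 tested genes of SREBP processing and sterol transport, 0 passed in either direction by limma, and the median change was -0.030. Npc1, which moves cholesterol out of lysosomes, had 0.39 (adjusted p = 0.12 by limma), and Mylip, a ubiquitin ligase, had 0.29 (adjusted p = 0.195). Both separated the groups upward, and 1 gene of the list separated them downward. Over all genes, 5.13% separated upward and 5.24% downward. Npc1 and Mylip were the 2 genes of that list with higher signal at an unadjusted p under 0.05, and 1 gene was lower. The shares over all genes were 7.88% and 7.13%.

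Of 14 tested genes of the LXR receptors, sterol efflux, esterification and oxysterol synthesis, 1 passed as higher and 0 as lower. Over all genes these shares were 0.781% and 0.351%. Means were higher for 9 of the 14 and lower for 5, with a median change of 0.10. Abca1, the pump that exports cholesterol to apolipoprotein A-I, had 1.92, 1.75, 1.78 and 1.72 with vehicle and 2.30, 2.35, 2.19 and 2.17 with E7386. It rose by 0.46 (SE 0.078, adjusted p = 0.0385 by limma), and was likewise no longer called without any 1 array (adjusted p from 0.0159 to 0.17 over 21 alternatives). Ch25h, which makes the SREBP-suppressing oxysterol 25-hydroxycholesterol, had -0.93 (SE 0.26, adjusted p = 0.155), and Nr1h2, LXR beta, had 0.19. Groups did not overlap for Ch25h downward, nor for Abca1 and Nr1h2 upward. Such separation was seen for 5.24% of all genes downward and 5.13% upward.

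Other fatty acid genes, 20 tested, had 0 calls in either direction and a median of 0.0049. At an unadjusted p under 0.05, 2 were lower and 2 higher, against 7.13% and 7.88% of all genes. Desaturases of the same family differed in sign. Scd2 had 5.49, 5.38, 5.25 and 5.23 with vehicle and 5.05, 4.93, 4.65 and 4.61 with E7386 (change -0.53, SE 0.12, adjusted p = 0.0966 by limma), while Scd1, the main desaturase of sebaceous cells, had 0.15 (95% interval -0.17 to 0.46). The difference between these 2 genes was not tested. Gpam, the first enzyme of glycerolipid synthesis, had -0.33, and Elovl5 had 0.24. Of 8 other sterol and isoprenoid enzymes tested, 0 passed, also at an unadjusted p under 0.05, with changes from -0.18 for Nus1 to 0.16 for Pdss1 and -0.10 for Coq2.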

How the data were processed

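Intensities were deposited as scanner files that the authors made with Agilent Feature Extraction (11.5.1.1 per the file headers, 11 per the submitters' processing notes) from 50 ng of RNA per 1-colour array. The table of log2 values deposited by the authors has a median of 5.31 in every column, with columns that share the same sorted values; it was used as an alternative. It is log2 signal, not centred per gene, and how it was normalised is not stated in the sources used here. Columns with the same sorted values are what quantile normalization yields. The table gave 292 genes called and a sterol median of -0.2162, against 293 and -0.2169 with quantile normalization of the scanner files.

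From the files, log2 of the processed signal minus the array's 75th percentile over mouse spots was computed, non-uniform spots were set to missing, and spots of a probe were averaged. Accessions were matched to RefSeq symbols for 27509 of 29150 RefSeq probes of 55681 in all. The brightest probe stood for each gene, and genes well above background on at least 3 of 4 arrays of a group were kept, 25353 in all. The groups were compared in R 4.3.3 by limma 3.58.1 (lmFit, eBayes), with Benjamini-Hochberg adjustment at 0.05. The fit was first tried on simulated data with added changes larger than that of any member. That trial does not show how well changes of the members' size are found. Within groups arrays correlated at 0.985 to 0.994. Members and lists were chosen with earlier results of these data known. The text names all 30 members and, of other lists, called genes and up to 3 with the smallest p; Lbr and Scd1 were added after their values were seen. Some genes are not reported here. Replicate numbers were taken as pairing nothing, since their deviations correlated at 0.49, -0.17, 0.29 and 0.18.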

Additional observations from a re-analysis of the deposited data

Results flagged for a closer look

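Of 66 groups of 4 values examined (each member in each group, and the arm means), 2 had a sample far from the others, where chance flags about 1 in 20. Pmvk was 4.14 on vehicle replicate 2 against 4.05 to 4.06 on the other vehicle arrays. Acss2 was 1.07 on vehicle replicate 3 against 1.15 on each of the other 3. Both gaps are under 0.1 on the log2 scale.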

How the results depend on the processing

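Over 21 alternatives, 23 of 30 members kept the sign of their change in all, and the others (Ggps1, Msmo1, Insig1, Scap, Acss2, Me1 and Elovl6) were never called; 5 members passed in at least 1. The count of members called lower, 1 in the report, was 2 with array medians, with detection on all 8 arrays and with array weights, 3 with quantile normalization, the authors' processed values, trend and robust options and normexp on median signals, 5 with the muscle mean as covariate, and 0 without a filter, without the 3 arrays lowest in muscle and with the replicate number as a block. Leaving out 1 array gave 0 to 1, the 1 being Srebf1 in place of Lss. The share of all genes called differed between these fits too, and was 1.13% in the report, 2.23% with the muscle covariate, 1.69% with trend and robust options, 0.419% without a filter, 0.185% without the 3 arrays lowest in muscle, 0.189% with the replicate block (48 genes, Lss at adjusted p = 0.116 by limma) and 0.331% to 0.99% without 1 array. Without 1 array the median of the sterol arm ran from -0.29 to -0.11, that of the fatty acid arm from -0.14 to -0.084, and their difference from -0.15 to -0.020. Under the other alternatives the medians ran from -0.26 to -0.19 and from -0.18 to -0.049. Array medians in place of the 75th percentile shifted the median of all genes from 0.017 to -0.054. Both scalings subtract a constant per array from every gene. The sterol arm relative to that median was therefore bound to stay at -0.21, which is no check of it. Normexp on mean signals was not run, because that column is not in the tables used here; median signals took its place. All members were well above background on all 8 arrays. The change of Srebf1 still differed between -0.79 in the report and -0.55 with normexp on median signals. Having 4 arrays per group limits the precision.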
